A study of Mus musculus with 36 samples.

Results

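RPFs of fraction 5/6 from FMR1 KO mouse brain were prepared in 2 ways, and the libraries of the standard preparation were compared gene by gene with those of a low nuclease preparation. The comparison used 6 of the 36 libraries of the series, 3 for each preparation, chosen by their labels alone. FMR1 KO mice carry a knockout of Fmr1 on the C57BL/6 background in every cell, and both groups are knockouts. Each preparation pooled the brains of 10 pups at postnatal day 5, so a library describes a pool and not an animal. Fraction 5/6 is the part of a sucrose gradient of brain homogenate that holds ribosome clusters, which the labels call Polysome. The standard libraries (M-protocol in the labels) came from homogenates in 10 mM MgCl2, with RNase I scaled to the absorbance of the sample and used at room temperature. The low nuclease libraries (treatment control in the labels) came from homogenates in 2.5 mM MgCl2, with a fixed amount of RNase I used in the cold. Recovery of the monosomes after digestion also differed, by pelleting in the standard preparation and by a further sucrose gradient in the low nuclease one. The 3 replicates of a group were given different linkers and were then pooled before reverse transcription and PCR. Nuclease, temperature, MgCl2, monosome recovery and library pool therefore differed together and cannot be told apart here.

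In ribosome profiling, nuclease removes the mRNA that lies outside ribosomes, and the fragment shielded by each ribosome, the RPF, is sequenced. The number of RPFs on a gene reflects both how much of its mRNA is present and how many ribosomes sit on it. Magnesium holds the ribosomal subunits together on the mRNA, and too little digestion leaves fragments that reach beyond the ribosome. FMRP, the product of Fmr1, is an RNA-binding protein of neuronal RNA granules that associates with stalled ribosomes, and its loss causes fragile X syndrome.

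The standard libraries held 20560524, 27263089 and 6765065 counts, and the low nuclease libraries held 43399650, 62310787 and 40476710. Cdk8 alone took 52.9%, 51.6% and 36.7% of the counts in the standard libraries and 5.20%, 3.10% and 3.67% in the low nuclease libraries. Cdk8, a kinase of the Mediator complex, was left out before normalization. What remained was 9694115, 13192918 and 4284209 counts in the standard libraries against 41141301, 60377525 and 38991334, so low counts were measured more precisely in the low nuclease libraries. The 10 most counted genes of each library then took 22.0% ± 7.91 (SD, n = 3) of the counts in the standard preparation and 12.1% ± 1.26 (n = 3) in the low nuclease preparation. The groups did not overlap, and the exact permutation test gave p = 0.1 (two-sided), the smallest that 3 against 3 libraries allow. The difference of 9.84 percentage points was 5.70 without standard replicate 1 and 13.6 without standard replicate 3. The first principal component of the normalised read counts held 54.7% of the variance and separated the preparations, with the standard libraries from -81.3 to -42.0 and the low nuclease libraries from 51.4 to 79.8. Standard replicate 3, the shallowest library, stood apart on the second component at -71.8, and the counts of calls in the gene lists are given below without it where leaving it out changed them by over 1.5 times. The mean distance between libraries of different preparations was 1.48 times that within preparations (one-sided p = 0.1 by exact permutation, again the smallest that can be had).

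Of 14980 protein-coding genes tested, 3130 passed an adjusted p of 0.05 in edgeR's quasi-likelihood test (20.9%). Levels are given as CPM, read counts scaled to library size after the removal of Cdk8 and with TMM factors, and changes as log2 of standard over low. In the standard preparation 1502 genes were higher (10%) and 1628 were lower (10.9%). The 3 standard and 3 low nuclease libraries did not overlap for 6765 genes (45.2%). Falls were larger than rises: the median change was 0.74 among genes called higher and -1.24 among genes called lower, and a change of 2-fold or more was called for 369 genes higher and 1054 lower. The median over all genes tested was -0.05. Scaling by library size alone, without TMM, moved that median to -0.48 and the calls to 217 higher and 1950 lower, so that 10.0% of the calls were higher in place of 48.0%, and the changes below are to be read relative to the median of all genes. Without standard replicate 3 there were 2822 calls, 1428 higher and 1394 lower, and 2172 of the calls made with it remained (69.4%). The count of calls fell to 531 without standard replicate 1, 314 without standard replicate 2, 756 without low replicate 2 and 578 without low replicate 3, and was 3905 without low replicate 1.

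**Figure D1:**
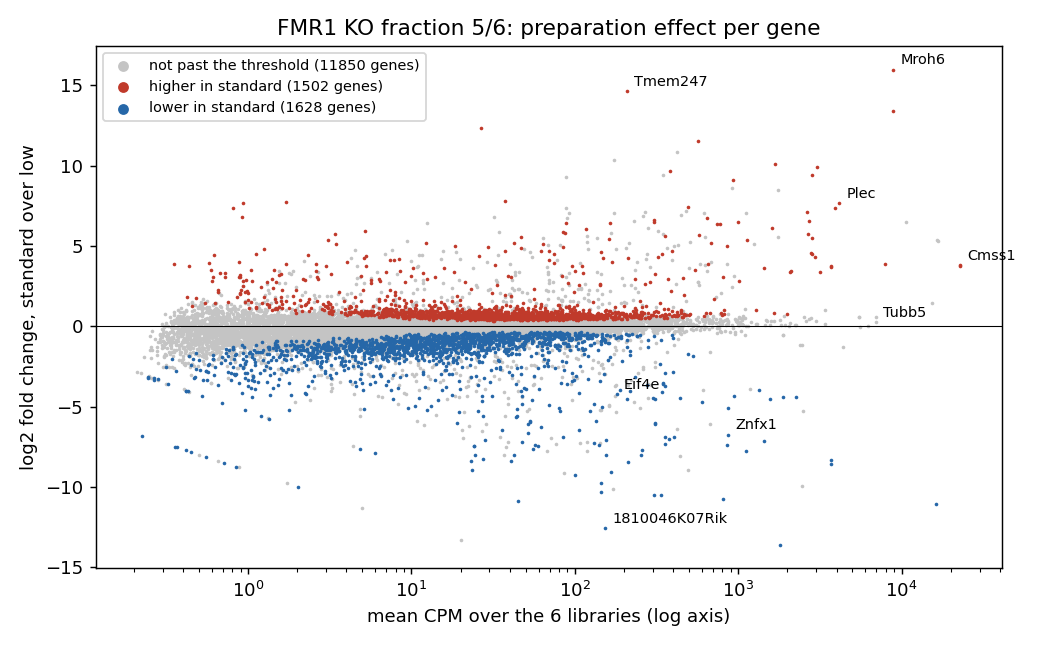
Change between preparations for each of 14980 genes (log2 of standard over low, vertical axis) against mean CPM over the 6 libraries (log axis). Red points are the 1502 genes called higher in standard, blue points the 1628 called lower and grey points the rest, and the falls reach further from 0 at low CPM.

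Fmr1 itself lies on the X chromosome from 68678541 to 68717963 (GRCm38). It had 8.62, 8.74 and 9.33 CPM in the standard libraries and 8.99, 7.07 and 5.88 CPM in the low nuclease libraries. The groups overlapped, and the change was 0.28 (SE 0.198, edgeR adjusted p = 0.317). How the knockout alters the Fmr1 gene is not stated in the labels or methods. A count per gene does not show where reads lie within it, so these counts do not check the labels. The related Fxr1, an RNA-binding protein of the same family, had 123, 137 and 103 CPM against 81.3, 70.0 and 83.2 and rose by 0.63 on the log2 scale (edgeR adjusted p = 0.0315), whereas with library size alone none of the 3 members of the family was called and the family's median was -0.10, and none was called without standard replicate 1 or 2 or low replicate 2 or 3. When Cdk8 was kept in the fit, it had 1147190, 970404 and 356917 CPM against 35042, 18790 and 22942. Its 3 standard libraries lay above all low nuclease libraries, yet its change of 5.01 (SE 2.52) did not pass the test (edgeR adjusted p = 0.181).

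The largest changes were taken from called genes without overlap and with a mean of at least 10 CPM over the 6 libraries. A gene can reach that mean through a single preparation. The 10 largest rises were in Mroh6, Tmem247, Fam83h, Gal3st2, Mboat1, Creb3l1, Rnf170, Harbi1, Lmx1a and Mylk4. Mroh6 (chromosome 15, 75884137 to 75888770, minus strand) went from 0.350, 0.151 and 0.327 CPM in the low nuclease libraries to 26970, 25181 and 1267 CPM in the standard libraries. It was high in standard replicates 1 and 2, lower in standard replicate 3, and nearly absent from the low nuclease libraries. The change was 15.97 (SE 1.74, edgeR adjusted p = 0.0074). Fam83h, a keratin-organizing protein whose gene lies on the same strand of chromosome 15 from 76001093 to 76014336, followed the same course with 26876, 25159 and 1239 CPM against 1.62, 1.43 and 1.81, a change of 13.42. Tmem247, a membrane protein gene, had 512, 445 and 291 CPM in the standard libraries and 2 counts in all of the low nuclease libraries together. Its ratio of standard to low was 35481, with a 95% interval of 9819 to 293019 that covers counting error only. For Gal3st2, a sulfotransferase of galactose residues, the ratio was 10084 (1807 to 398582), from 1345 counts against 1.

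The standard replicates differed widely from each other for several of these genes. Lmx1a, a transcription factor of dopaminergic progenitors, had 4741, 820 and 4.46 CPM in the standard libraries against 3.61, 3.21 and 3.20. Standard replicate 3 thus lay close to the low nuclease libraries, and the change of 9.12 carried an SE of 2.25 (edgeR adjusted p = 0.0369). Mboat1, an acyltransferase of lysophospholipids, was low in another library, with 37.6, 6623 and 3473 CPM against 2.45, 2.52 and 4.12, a change of 10.12. For Mylk4, a kinase of the myosin light chain kinase family, 108 and 115 CPM stood beside 0.811 in standard replicate 3, against 0.219, 0.507 and 0.240. Rnf170, a ubiquitin ligase of the endoplasmic reticulum, had 1142, 1087 and 51.1 CPM against 0.635, 1.17 and 0.980, a change of 9.67. In sum, the 10 genes took 81245, 73658 and 6551 CPM in the standard libraries and 21.6, 20.1 and 30.6 CPM in the low nuclease libraries. The sum holds Mroh6 with Fam83h and Creb3l1 with Harbi1, pairs with near-equal counts whose reads may have been counted for both genes. It may therefore be too high.

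Of the 10 largest falls, 8 are described here, 1810046K07Rik, Il10ra, Dmbt1, Hoxa9, Hoxa4, Tdrd9, Hoxd11 and Tpst2. Dmbt1, a scavenger receptor of epithelia, had 1004, 418 and 408 CPM in the low nuclease libraries and 0.892, 0.194 and 0.203 CPM in the standard libraries. Every low nuclease library of these genes was higher than every standard library by the rule that chose them.

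Other falls rested on some of the low nuclease libraries. Hoxa9 had 2.47, 551 and 314 CPM there (113, 40182 and 14402 counts). Hoxa4, a patterning gene of the same Hox cluster, had 3.17, 551 and 314 CPM (145, 40215 and 14422 counts). Their counts were within 10% of each other in low replicates 2 and 3, so the same reads may have been counted for both. Both had little in low replicate 1. Tdrd9, an RNA helicase of the germline, had 933, 1.37 and 66.2 CPM in the low nuclease libraries against at most 0.874 in the standard ones. Tpst2, a tyrosine sulfotransferase, had 67.2, 101 and 1098 CPM against 1.93, 1.07 and 0.608. Of these genes, 3 had 1 or 2 counts in the standard libraries together, and their ratios of low to standard with 95% counting intervals were 6470 (1161 to 255550) for 1810046K07Rik, 2184 (392 to 86258) for the interleukin 10 receptor gene Il10ra and 511 (141 to 4217) for Hoxd11.

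**Figure D2:**
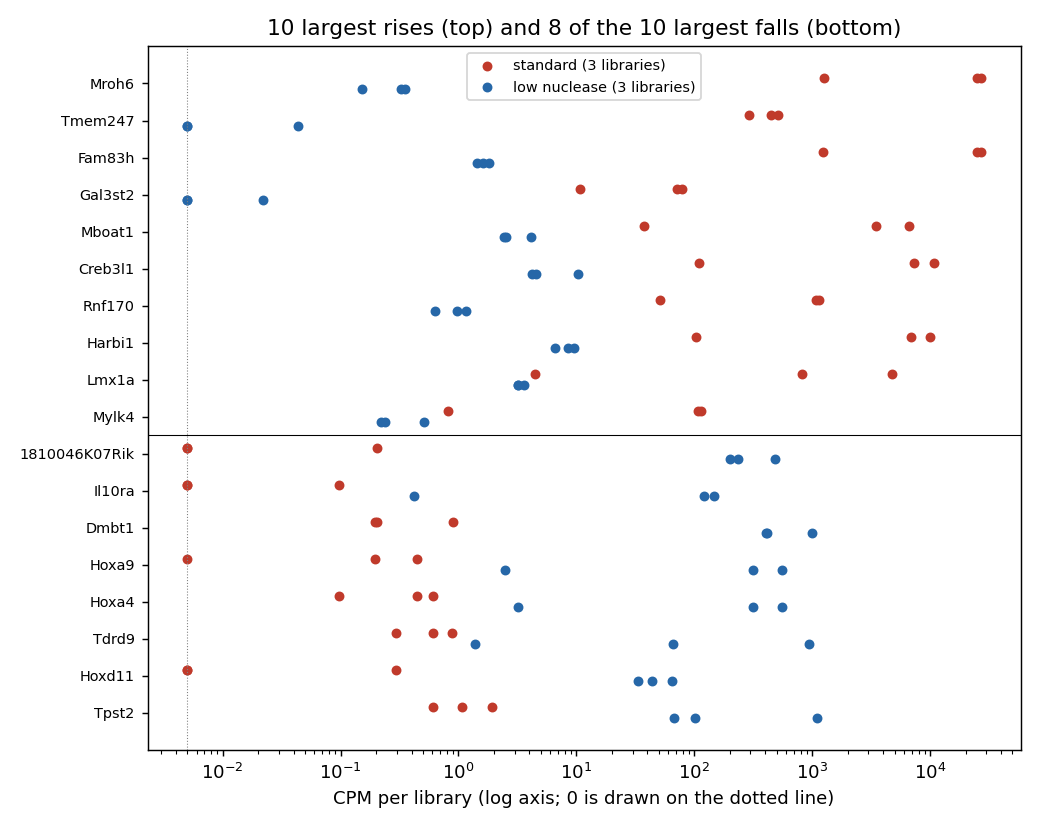
CPM in each of the 6 libraries (log axis) for the 10 largest rises, above the line, and 8 of the 10 largest falls, below it. Red points are the 3 standard libraries and blue points the 3 low nuclease libraries. Lmx1a and Mylk4 have a standard library close to the low nuclease ones, and Hoxa9, Hoxa4, Il10ra and Tdrd9 have a low nuclease library close to the standard ones.

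Several of these genes shared their counts with a neighbour. Mroh6 had 181408, 259200 and 6247 counts in the standard libraries and Fam83h, 112323 bases away, had 180781, 258980 and 6112. Harbi1, a nuclease related to transposases, had 67467, 70861 and 512 counts and Creb3l1, a transcription factor of the endoplasmic reticulum, 260783 bases away, had 72352, 74768 and 543. In the low nuclease libraries 1810046K07Rik had 22194, 17083 and 9229 counts, and Btg4, a regulator of mRNA decay in oocytes that lies 169811 bases away, had 22276, 17248 and 9270. A pair was counted as near-equal where both genes, on the same chromosome and at most 1 Mb apart, had at least 50 counts and counts within 10% of each other in all 3 libraries of a preparation. By this rule 14.1% of all genes tested had such a neighbour, against 18.6% of genes called higher, 12.7% of genes called lower, 4 of the 10 largest rises and 1 of the 10 largest falls. Among the 100 largest rises it was 26%, and among the 100 largest falls 27%. Of the genes named below, Cmss1, Filip1l, Kif13a, Rbm24, Eif3g, Rpl13, Gfap, Olig2, Znfx1, Kif21b, Tspyl4 and Hist1h4m had such a neighbour. Hoxa9 and Hoxa4 were near-equal in low replicates 2 and 3, and Csad and Zfp740 in low replicates 1 and 3. These pairs fell outside the rule because the remaining low nuclease library differed by over 10%, and they are uncertain in the same way. Single genes of this kind are uncertain, since the same reads may have been counted for both. How their counts arose was not tested.

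The most counted genes of the standard libraries were Cmss1, Filip1l, Kif13a, Rbm24 and Itga9. Cmss1, the homologue of a yeast protein of the small ribosomal subunit, had 57185, 45950 and 25110 CPM against 3599, 4663 and 1021, a rise of 3.79 (SE 0.760, edgeR adjusted p = 0.0241). Filip1l, which lies inside the Cmss1 locus on the opposite strand, had nearly the same values with 57164, 45934 and 25095 CPM. The counts of these overlapping genes cannot be told apart. The kinesin gene Kif13a had 92802, 4816 and 14.2 CPM in the standard libraries and 847, 582 and 1019 CPM in the low nuclease ones, so its highest and lowest values were both in the standard preparation. Its change of 5.32 (SE 2.35) did not pass the test (edgeR adjusted p = 0.137), and neither did that of its near-equal neighbour Rbm24. Itga9, an integrin subunit, had 25361, 23138 and 19243 CPM against 11225, 5639 and 7927. All its standard libraries lay above the low nuclease ones, with a change of 1.45 and an edgeR adjusted p of 0.0572.

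In the low nuclease libraries, Itga9, Zfp740, Csad and Tubb5 were among the 5 most counted genes. Zfp740, a zinc finger gene, had 9759, 28.8 and 12472 CPM there and 25.3, 22.0 and 24.1 CPM in the standard libraries. Csad, an enzyme of taurine synthesis whose gene overlaps Zfp740 at its end on the opposite strand of chromosome 15, had 9751, 20.6 and 12463 CPM against 16.7, 21.9 and 21.3. For both, low replicate 2 lay with the standard libraries. Tubb5, a beta tubulin, had 7245, 5277 and 6398 CPM against 6758, 8429 and 7738, and with overlapping groups and a change of 0.28 it did not pass the test (edgeR adjusted p = 0.509).

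hnRNPs package nuclear RNA and, with other RNA-binding proteins, form neuronal granules. Of 32 tested genes of this list, 14 were higher in the standard preparation and 2 were lower (43.8% higher, against 10% of all genes), with a median change of 0.47 against -0.05 for all genes tested. Hnrnpa2b1, which carries RNA in neuronal granules, had 1720, 1978 and 1494 CPM against 913, 783 and 821. All 3 standard libraries were above the low nuclease ones, and the change was 1.04 (SE 0.198, edgeR adjusted p = 0.0213). Hnrnpa3 rose likewise by 1.04, from 113, 95.0 and 98.2 CPM to 217, 232 and 180. The 2 members that fell were the purine-rich element binding proteins of transported RNA granules, Purb (81.9, 65.5 and 56.2 CPM against 122, 160 and 141, a change of -1.05) and Pura (-0.48, edgeR adjusted p = 0.0365). With library size alone the median of the list was 0.04, still above that of all genes, and none of its members was called higher, whereas DESeq2 called 18 higher. Without standard replicate 3, 10 were higher and 1 lower, and the count of members called higher was 1 without standard replicate 1, 0 without standard replicate 2, 15 without low replicate 1, 1 without low replicate 2 and 0 without low replicate 3. The median above that of all genes stayed between 0.45 and 0.58 under every alternative.

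Chaperones, proteasome subunits and genes of the cell cycle also had medians above that of all genes, whereas those of chromatin regulators (-0.14) and of the giant cytoskeletal and motor proteins (-0.10) were below it. Of 19 chaperones 5 were higher (26.3%, against 10% of all genes) and none lower, with a median of 0.49. The genes called were Cct2 and Cct8 and, picked out after their values were seen, Cct4, Cct5 and Tcp1, which encode subunits of the chaperonin TRiC. The list holds other subunits of it, Cct3 (0.52, edgeR adjusted p = 0.0797) and Cct7 (0.49, edgeR adjusted p = 0.0931), that did not pass the test. The subunit gene Cct6a was left out of the main fit as a row of another biotype. In the fit of all biotypes it did not pass either (0.61, edgeR adjusted p = 0.0535). TRiC was not tested as a list of its own. Cct8 had 445, 613 and 486 CPM against 299, 224 and 284 (0.93, SE 0.194, edgeR adjusted p = 0.0256). Of 31 proteasome subunits 8 were higher (25.8%) and none lower, with a median of 0.22, and Psmd1, a subunit of the regulatory particle, had 194, 263 and 193 CPM against 135, 92.2 and 133 (0.85). Of 20 genes of the cell cycle and DNA replication 6 were higher (30.0%) and none lower, with a median of 0.48. Cenpf, a kinetochore protein, had 45.5, 35.7 and 32.0 CPM against 13.8, 11.8 and 17.2 (1.40, SE 0.197, edgeR adjusted p = 0.0125), and Cenpe, the kinetochore motor, had 15.0, 13.8 and 6.49 CPM against 3.37, 3.19 and 4.62 (1.67). At an unadjusted p under 0.05, 12 chaperones, 13 proteasome subunits and 13 cell cycle genes were higher, and 0, 5 and 0 were lower, whereas DESeq2 called 13, 13 and 10 higher and 0, 1 and 0 lower. With library size alone the medians were 0.08, -0.19 and 0.06, and 0, 0 and 2 members were called higher. Without standard replicate 3 the counts called higher were 3, 7 and 6. Without standard replicate 1 or 2 or low replicate 2 or 3, no chaperone or proteasome subunit was called higher, and 2, 0, 2 and 2 cell cycle genes were.

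Translation factors were mixed. Among 29 initiation factors 4 were higher (13.8%, against 10% of all genes) and 1 lower, with a median of 0.21. With library size alone the median was -0.22 and none was higher, whereas DESeq2 called 9 higher and 11 were higher at an unadjusted p under 0.05. Eif3a and Eif3g, subunits of the complex that recruits the small ribosomal subunit, had 149, 174 and 131 CPM against 85.4, 60.4 and 76.5 (1.03) and 441, 213 and 199 CPM against 134, 111 and 106 (1.28). Eif4e, the cap-binding protein of translation initiation, moved the other way, with 22.2, 16.5 and 16.6 CPM in the standard libraries against 293, 289 and 447 CPM. The fall of -4.22 (SE 0.256, edgeR adjusted p = 0.0013) left a wide gap between the libraries of the preparations and passed the test under every alternative run, between -4.67 and -3.98. Without standard replicate 3 the initiation factors had 2 higher and 1 lower, and without standard replicate 1 or 2 or low replicate 3 only the fall of Eif4e was called. Elongation factors had 2 of 10 higher (20.0%, against 10% of all genes), Eef1d (0.47) and Eef1b2 (0.42), both subunits of the exchange factor of eEF1A, and none higher without standard replicate 3 or any other library but low replicate 1, or with library size alone (median -0.28). Of 82 cytosolic ribosomal proteins 5 were higher and 7 lower (6.10% and 8.54%, against 10% and 10.9% of all genes), with a median of -0.08. Rps9 rose by 0.68 and Rps24 by 0.80, and Rpl13 (16.9, 13.8 and 46.4 CPM against 93.4, 127 and 110, a change of -2.11) and Rpl39 (-2.09, at most 2.75 CPM in any library) fell. Ribosomal protein genes have many near-identical pseudogenes, and 28 of the 82 had a near-equal neighbour, so their counts are uncertain. The ribosomal proteins had 2 higher and 18 lower when standard replicate 3 was left out, 1 and 1 without standard replicate 1, none called without standard replicate 2, 0 and 2 without low replicate 2 or 3, 5 and 5 without low replicate 1, and 0 and 5 with library size alone.

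Of the cytoskeletal genes, none of 12 tubulins passed edgeR's test, 1 was higher at an unadjusted p under 0.05 and none was called by DESeq2, and the list's summed level was 16389, 20053 and 19429 CPM against 19649, 15360 and 17409. Tubb3, the neuronal beta tubulin, had 3188, 3790 and 3592 CPM against 3715, 2829 and 3183 (0.12, edgeR adjusted p = 0.731). Of 20 microtubule-associated proteins 2 were higher (10%, the share of all genes), Stmn4 (863, 846 and 725 CPM against 527, 425 and 407, a change of 0.84) and Stmn2 (0.80), both stathmins, which bind tubulin. The median of this list was 0.32, 19 of its 20 genes had a change above 0, and for 12 all standard libraries lay above all low nuclease ones, against 21.5% of all genes tested. Of 17 actin genes 2 were higher (11.8%), the actin-severing proteins Cfl2 (0.78) and Dstn (0.60), with a median of 0.28. DESeq2 called 7 genes of the former list and 5 of the latter higher, whereas with library size alone the medians were -0.08 and -0.11 and none was called. Leaving out standard replicate 1 or 2 or low replicate 2 or 3 also left none called in either list, and without low replicate 1 there were 4 and 3 higher. The giant cytoskeletal and motor proteins had 2 of 18 higher (11.1%, the kinesin Kif5b, 0.71, and the nonmuscle myosin Myh10, 0.66) and 3 lower (16.7%, against 10.9% of all genes), among them Kif21b (-0.56) and Dst, a spectraplakin, at 25.1, 18.5 and 36.5 CPM against 45.5, 66.3 and 54.4 (-1.06). This list had 2 higher and 1 lower when standard replicate 3 was left out, and without any of the other libraries but low replicate 1 none was called.

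Of 26 voltage-gated channel genes, which set the excitability of neurons, 16 were lower in the standard preparation and none higher (61.5% lower, against 10.9% of all genes), with a median of -1.43. Cacna1g, a T-type calcium channel, had 2.82, 2.72 and 3.04 CPM against 9.19, 20.6 and 11.7, a change of -2.28 (SE 0.346, edgeR adjusted p = 0.0138). Scn8a, a sodium channel of the axon initial segment, had 4.31, 4.37 and 6.69 CPM against 15.6, 29.4 and 20.8 (-2.12). The libraries of the preparations did not overlap for 19 of the 26, all lower in standard, against 23.7% of all genes tested. At an unadjusted p under 0.05, 19 were lower and 1 higher, and DESeq2 called 18 lower and 1 higher. Leaving out standard replicate 3 gave 8 lower and 1 higher, and the number called lower was 0 without standard replicate 1 or 2, 6 without low replicate 2, 3 without low replicate 3 and 19 without low replicate 1 or with library size alone. The median minus that of all genes stayed between -1.66 and -1.07 under every alternative.

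Glutamate and GABA receptor subunits had 9 of 26 lower (34.6%, against 10.9% of all genes) and none higher (median -0.82, with 14 lower and 0 higher at an unadjusted p under 0.05 and 11 lower and 0 higher by DESeq2). Grin2a, an NMDA receptor subunit, had 3.12, 3.01 and 4.46 CPM against 33.2, 17.3 and 29.6, a fall of -2.94 (SE 0.309, edgeR adjusted p = 0.0066). Gabbr2, a GABA B receptor subunit, had 14.3, 10.4 and 12.2 CPM against 22.0, 65.8 and 42.5 (-1.83). Of 20 postsynaptic scaffold genes 6 were lower (30.0%), with a median of -0.33. The scaffold gene Shank3, linked to autism, had 34.2, 29.2 and 28.0 CPM against 77.9, 214 and 118 (-2.16), and Shank1 had 70.2, 70.9 and 79.1 CPM against 156, 258 and 193 (-1.46). The receptor list had 4 lower without standard replicate 3, and across the libraries left out the count ran from 1 (without standard replicate 1 or 2) to 16 (without low replicate 1). The postsynaptic count ran from 2 (without standard replicate 1 or 2) to 6, and was 4, with 1 higher, without standard replicate 3.

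Synaptic vesicle genes went both ways, with 1 of 26 higher and 4 lower (15.4%, against 10.9% of all genes) and a median of -0.05. Unc13a, the priming factor of synaptic vesicles, had 887, 674 and 344 CPM against 135, 126 and 160 (2.18, SE 0.354, edgeR adjusted p = 0.0156). Stx1a, the syntaxin of the same fusion machinery, had 260, 232 and 191 CPM against 731, 655 and 870 (-1.72, SE 0.194, edgeR adjusted p = 0.0079). The genes of these partners in vesicle fusion moved in opposite directions, and neither had overlap between the preparations. Sv2b, a vesicle glycoprotein, had 12.2, 11.9 and 11.2 CPM against 14.6, 36.9 and 31.0 (-1.22). Leaving out standard replicate 3 gave 2 higher and 3 lower vesicle genes, and across the other libraries left out the number lower ran from 2 to 8 (without low replicate 1).

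Collagens, laminins and other matrix genes had 1 of 26 higher, Lama2 (8.77, 20.2 and 16.8 CPM against 7.62, 5.17 and 5.14, a change of 1.36), and 4 lower (15.4%, against 10.9% of all genes), with a median of -0.63. Nid1, a basement membrane protein, had 4.31, 4.27 and 4.26 CPM against 36.7, 27.0 and 20.0 (-2.70, SE 0.250, edgeR adjusted p = 0.0044). The proteoglycan gene Hspg2 was more variable, at 1.78, 1.94 and 0.811 CPM against 119, 243 and 5.90 (-6.28). Of the matrix genes, none was higher and 2 were lower without standard replicate 3, and the number lower was 1 without standard replicate 1 or 2 or low replicate 2, 3 without low replicate 3 and 8 without low replicate 1. None of 20 ER chaperone and translocon genes passed edgeR's test, 2 were lower and 0 higher both at an unadjusted p under 0.05 and by DESeq2, and their median was -0.36, whereas 8 were lower without low replicate 1 and 1 without standard replicate 3. For Calr, a lectin chaperone, the values were 51.9, 58.3 and 56.4 CPM against 38.6, 86.4 and 78.3. The genes encoded by mitochondrial DNA, read by mitochondrial ribosomes, were barely covered: 4 of 12 were tested, 2 fell (mt-Nd5 and mt-Cytb, at most 3.50 CPM in any library), and the median was -2.31, with 1 lower without standard replicate 3. Nuclear respiratory chain genes had 4 of 59 higher and 3 lower (6.78% and 5.08%, against 10% and 10.9% of all genes) with a median of 0.01, and mitochondrial ribosomal proteins 9 of 77 higher (11.7%) and 1 lower with a median of 0.01. DESeq2 called 9 higher and 7 lower in the former and 16 higher and 3 lower in the latter, and with library size alone each had none higher and 1 lower. These counts became, without standard replicate 3, 1 higher and 7 lower for the respiratory chain and 8 higher and 6 lower for the mitochondrial ribosomal proteins. Without standard replicate 1 or 2 or low replicate 2 or 3, at most 2 genes of either list were called in either direction, and without low replicate 1 there were 1 higher and 3 lower and 12 higher and 1 lower.

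**Figure D3:**
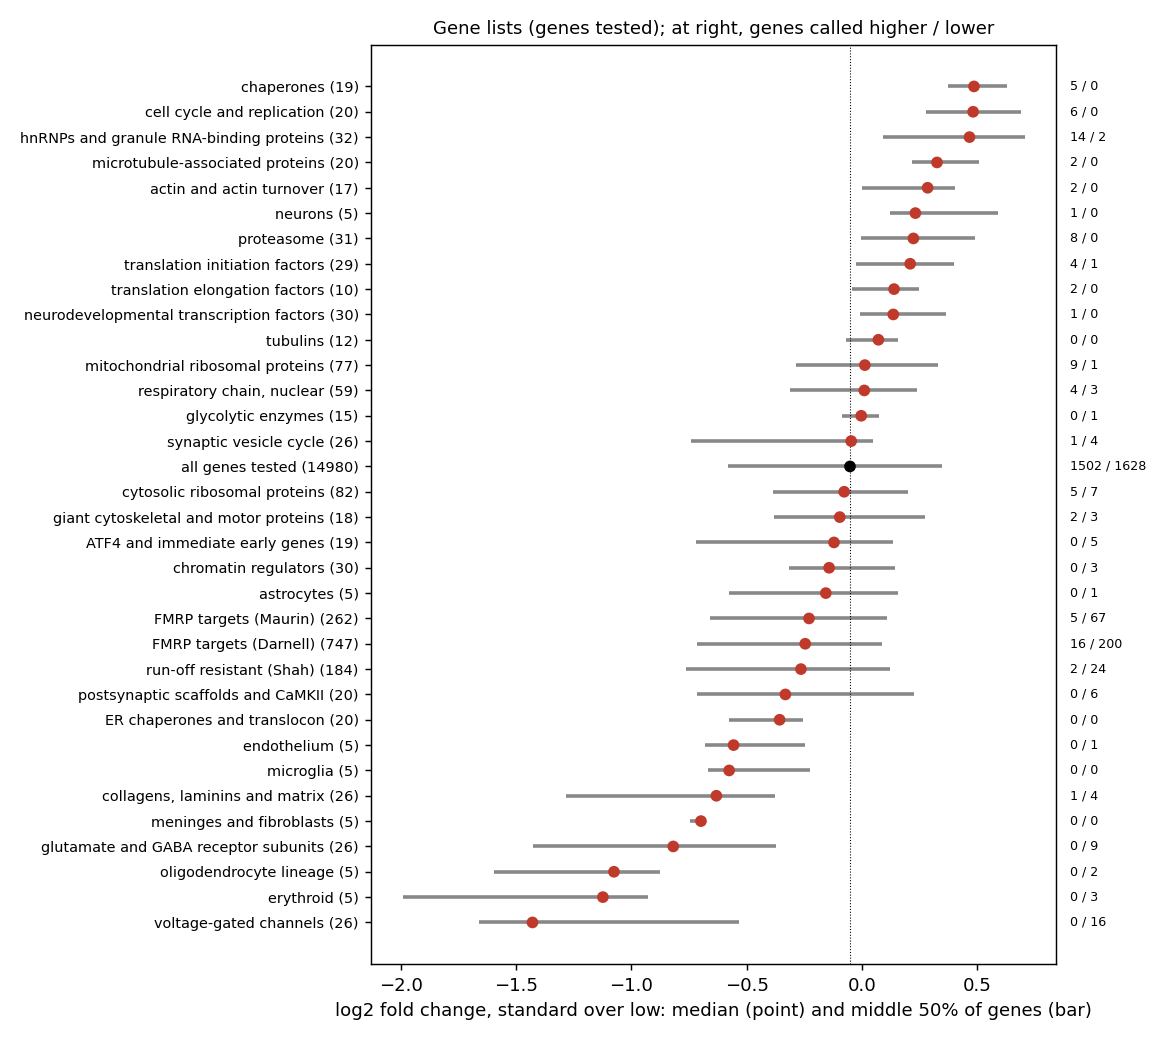
Median change (log2 of standard over low, points) and the range of the middle 50% of genes (bars) for each gene list with at least 5 genes tested, with all genes tested in black and as a dotted line. At right are the genes called higher and lower. The lists run from voltage-gated channels at -1.43 to chaperones at 0.49.

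Markers of brain cell types were examined in the same libraries, and these are whole-brain pools in which fewer cells of a type and fewer RPFs per cell cannot be told apart. Neuronal markers summed to 7711 to 8375 CPM in the standard libraries and 5655 to 7107 CPM in the low nuclease libraries. Of the 5 markers 1 was called higher, Stmn2 (20.0%, against 10% of all genes), whereas with library size alone none was higher and 1 lower and the median was -0.21. Of 5 astrocyte markers 1 was lower (20.0%, against 10.9% of all genes), Gfap, the glial filament protein (106, 119 and 101 CPM against 131, 183 and 172, a change of -0.58). The oligodendrocyte lineage had 2 of 5 lower (40.0%, against 10.9% of all genes), and summed to 84.4 to 111 CPM against 166 to 210. The 2 were the transcription factors Olig1 (44.9, 42.5 and 60.6 CPM against 89.4, 96.3 and 85.8, a change of -0.88) and Olig2 (-0.52). Globin and other erythroid genes summed to 7.67 to 13.5 CPM against 31.0 to 39.2, with 3 of 5 lower (60.0%, against 10.9% of all genes). The beta globin Hbb-bs had 1.04, 0.680 and 4.87 CPM against 16.1, 19.5 and 13.1 (-3.03). Microglial markers summed to 118 to 132 CPM against 121 to 170, with none called by edgeR or DESeq2 and 0 at an unadjusted p under 0.05. Endothelial markers were near absent, at 3.65 to 8.47 CPM against 5.78 to 20.6, with 1 of 5 lower, Cldn5 (20.0%, against 10.9% of all genes). The meningeal and fibroblast markers summed to 16.4 to 21.3 CPM against 21.1 to 36.5, and none was called, with 2 lower at an unadjusted p under 0.05 and 0 by DESeq2. Of the 4 Y-linked genes tested, 2 were higher (50.0%, against 10% of all genes), Uty (0.74) and Eif2s3y (0.68). Ddx3y (0.68, edgeR adjusted p = 0.0772) and Kdm5d (0.32, edgeR adjusted p = 0.357) did not pass the test. Neither Gfap nor Cldn5 was called without standard replicate 3. When standard replicate 1 or 2 or low replicate 2 or 3 was left out, 1 of the 5 erythroid genes was lower, and no neuronal, astrocyte, oligodendrocyte lineage, endothelial or Y-linked gene was called. Without low replicate 1, 4 oligodendrocyte lineage genes and 3 erythroid genes were lower. What these shifts in markers contribute to the lists above was not tested.

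Genes that respond to activity or stress gave 5 of 19 lower (26.3%, against 10.9% of all genes) and none higher (1 higher at an unadjusted p under 0.05 and by DESeq2), with 3 lower without standard replicate 3, 1 without standard replicate 1 or 2, 2 without low replicate 2 or 3 and 4 without low replicate 1. Their median was -0.12, and its difference from that of all genes was -0.07 and ran from -0.14 to 0.02 under the alternatives. Nr4a1, an immediate early transcription factor, had 4.31, 6.70 and 7.10 CPM against 14.1, 16.5 and 33.0 (-1.81). Npas4, an activity-dependent transcription factor, had at most 3.28 CPM in any library (-1.18). Chromatin regulators had 3 of 30 lower (10%, against 10.9% of all genes), among them the histone methyltransferase Kmt2d (64.5, 54.1 and 71.8 CPM against 264, 143 and 96.9, a change of -1.40). The number lower was 0 without standard replicate 1 or 2 or low replicate 2, 1 without low replicate 3 or with library size alone, and 2 without low replicate 1. Neurodevelopmental transcription factors had 1 of 30 higher (3.33%, against 10% of all genes), Pax6, a regulator of radial glia (0.56, edgeR adjusted p = 0.0385), and also 1 lower without standard replicate 3. In this list 7 were higher at an unadjusted p under 0.05, 6 by DESeq2 or without low replicate 1, and 0 with library size alone or without standard replicate 1 or 2 or low replicate 2 or 3. Glycolytic enzymes had 1 of 15 lower (6.67%), Gapdh (71.1, 92.6 and 108 CPM against 135, 152 and 151, a change of -0.69). Leaving out standard replicate 1 or 2 or low replicate 2 or 3 ended this call.

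The published lists used by the study were taken next, FMRP targets by crosslinking (Darnell and Maurin) and mRNAs resistant to ribosome run-off (Shah), which were chosen for this tissue and question and are not independent evidence of a direction. Of 747 tested Darnell targets 16 were higher and 200 lower (26.8% lower, against 10.9% of all genes), with a median of -0.25. The Maurin list had 5 higher and 67 lower of 262 (25.6%), and the Shah list 2 higher and 24 lower of 184 (13.0%). The Darnell, Maurin and Shah counts of higher genes were 24, 10 and 4 without standard replicate 3, ran from 2 to 24, from 1 to 10 and from 0 to 4 across the libraries left out, and were 45, 20 and 14 by DESeq2. These genes have long coding sequences (medians of 3111, 4283 and 2406 nt, against 1383 nt for all genes tested) and high levels (88.3, 115 and 126 CPM, against 14.4 CPM). Whether length or level accounts for their counts was not tested. The Darnell count of lower genes was 132 without standard replicate 3, 24 and 12 without standard replicates 1 and 2, 69 and 39 without low replicates 2 and 3, and 257 without low replicate 1. The Maurin count was 37 without standard replicate 3, 7 and 4 without standard replicates 1 and 2, 22 and 16 without low replicates 2 and 3, and 85 without low replicate 1. The Shah count was 5 without standard replicate 3 and ran from 1 (without standard replicate 1 or 2) to 76 (without low replicate 1).

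Single members of these lists moved by far more than the medians. Plec, the cytoskeletal linker plectin, had 12387, 11730 and 557 CPM against 36.9, 39.2 and 44.8 (7.67), and it lies on the same strand of chromosome 15 as Mroh6 and Fam83h, from 76170974 to 76232574, with the same drop in standard replicate 3. Ube3b, a ubiquitin ligase, had 6203, 3020 and 357 CPM against 41.9, 49.9 and 43.9 (6.14). The antiviral helicase gene Znfx1 had 14.6, 16.4 and 16.6 CPM against 891, 2607 and 1629 (-6.75, SE 0.485, edgeR adjusted p = 0.0023). Dscaml1, a cell adhesion molecule, had 3.72, 2.91 and 7.30 CPM against 7.59, 651 and 135 (-5.86). From the Maurin list, Arhgap21 rose by 5.36 (932, 3624 and 2113 CPM against 50.2, 64.3 and 47.4) and Adcy1, a calcium-sensitive adenylyl cyclase, fell by 2.89 on the log2 scale (23.0, 18.4 and 27.4 CPM against 97.8, 239 and 171). From the Shah list, Tspyl4 rose by 0.99 and Vgf, a secreted neuropeptide precursor, had 11.2, 14.1 and 12.8 CPM against 104, 99.6 and 22.6 (-2.57).

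Gene structure varied with the change. Transcripts were split into 5 equal groups by the share of the transcript that is coding (14779 genes with a coding model in GENCODE M21). In the group with the smallest coding share 15.9% of genes were lower and 6.97% higher, and in the group with the largest share 8.39% were lower and 11.5% higher. Genes with the longest 3′ UTRs were lower in 16.3% of cases, against 8.46% of those with the shortest. By level, 16.9% of genes were higher in the group with the highest mean CPM, against 3.21% in the group with the lowest. Across genes, Spearman's correlation of the change was 0.14 with coding share, -0.09 with 3′ UTR length and 0.25 with mean CPM. Genes are not independent replicates, all values come from the same 6 libraries, and mean CPM shares its counts with the change. Within the 5 groups by mean CPM the correlation with 3′ UTR length ran from -0.19 to -0.05. The position of reads within genes is not in the count table.

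**Figure D4:**
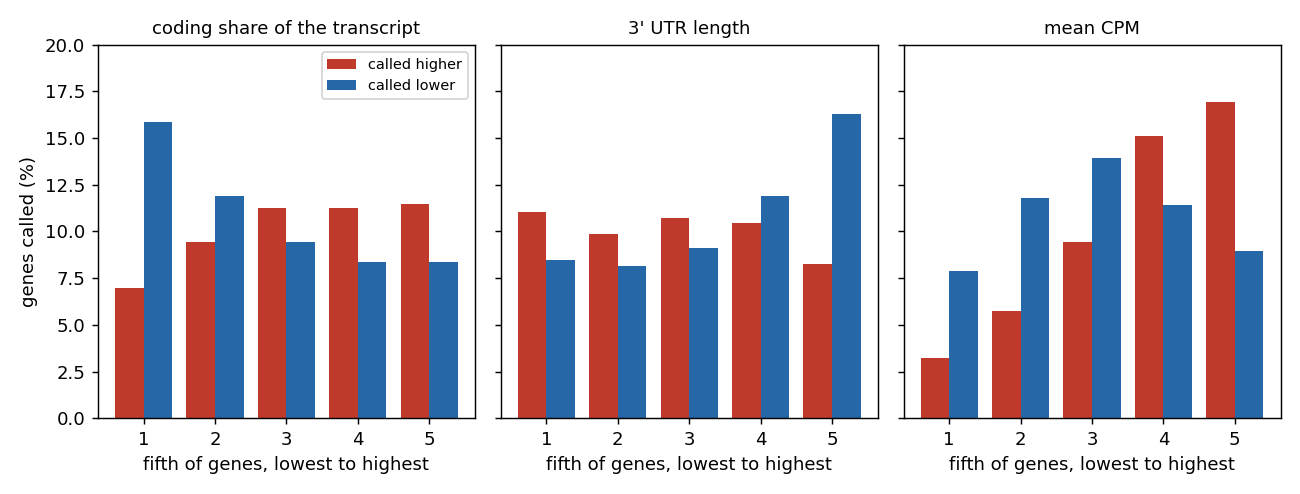
Percentage of genes called higher (red) and lower (blue) in standard for genes split into 5 equal groups by coding share of the transcript (left), 3′ UTR length (middle) and mean CPM (right). The group with the smallest coding share has 15.9% called lower, and that with the highest mean CPM has 16.9% called higher.

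Peaks of RPF coverage along transcripts were deposited for the standard libraries, and peaks of the low nuclease libraries were not analysed here, so peaks describe where standard RPFs lay and not a difference. The 3 libraries had 17341, 24548 and 11389 peaks. In all 3, with middles within 6 nt, 1153 peaks were found, of which 1123 lay in coding sequence (97.4%), 21 in 5′ UTRs and 9 in 3′ UTRs. The tallest shared peak of each library was not in a coding sequence. It lay in the 3′ UTR of Tmem38b, a potassium channel of the endoplasmic reticulum, with heights of 83779, 42666 and 4305 reads. A window of 30 nt at its centre is shown with those of 2 of the tallest peaks in coding sequence (GRCm38, 5′ to 3′ on the strand of the gene, and the base from which peak positions were counted is not stated, so each may be off by 1 nt). Capitals mark bases inside a copy of 5S rRNA that RefSeq annotates at this place on chromosome 4, from 53860652 to 53860770.
Tmem38b, chr4:53860755-53860784, plus strand: CCGGGTGCTGTAGGCTtgaaaaaaaaaacc
Tubb2b, chr13:34128190-34128219, minus strand: atgaaacctactgcatcgataatgaggctc
Tubb5, chr17:35835063-35835092, minus strand: accgaagctgagagcaacatgaacgacctc
The 5S rRNA copy covered 16 of the 30 bases in Tmem38b, and this was the only shared peak that overlapped an annotated small RNA gene. Tmem38b had 11885, 3972 and 864 CPM in the standard libraries and 101, 207 and 58.1 CPM in the low nuclease libraries, a rise of 5.51 (SE 1.10, edgeR adjusted p = 0.0240). Its counts in the standard libraries, 79945, 40887 and 4261, were of the same size as the height of that peak. The tubulin peaks had heights of 1848, 3272 and 1290 reads (Tubb2b) and 1567, 3008 and 1221 reads (Tubb5), and neither gene was called (0.11 and 0.28).

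The same comparison was made in libraries that share none of these samples, WT fraction 5/6 and the FMR1 KO pellet, each with 3 standard and 3 low nuclease libraries. The pellet holds the heavier clusters, taken as RNA granules, and may come from the same homogenates. Of the 1502 genes higher in FMR1 KO fraction 5/6, 1482 were tested in WT fraction 5/6 and 1422 of them had a change above 0 (96.0%, against 49.8% of all genes tested there). Of the 1628 genes lower, 1490 of 1601 had a change below 0 (93.1%, against 50.2%). In the pellet the shares were 1450 of 1478 (98.1%, against 48.9%) and 1540 of 1602 (96.1%, against 51.1%). Called in both genotypes were 237 of the higher genes (15.8% of the FMR1 KO calls and 55.1% of the WT calls) and 535 of the lower ones (32.9% and 54.0%), and with the pellet the counts were 597 (39.7% and 55.3%) and 830 (51.0% and 59.9%). Of all genes tested there, 2.94% were called higher and 6.76% lower in WT, and 7.42% and 9.53% in the pellet. Calls of opposite direction were 0 higher and 1 lower in WT and 0 higher and 2 lower in the pellet. In WT the median change of the genes called in FMR1 KO was 0.50 and -0.93, beside 0.73 and -1.23 for the same genes in FMR1 KO. Without WT standard replicate 3, 407 higher and 563 lower genes were called in both (27.1% and 34.6% of the FMR1 KO calls, against 5.25% and 8.26% of all genes tested there).

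**Figure D5:**
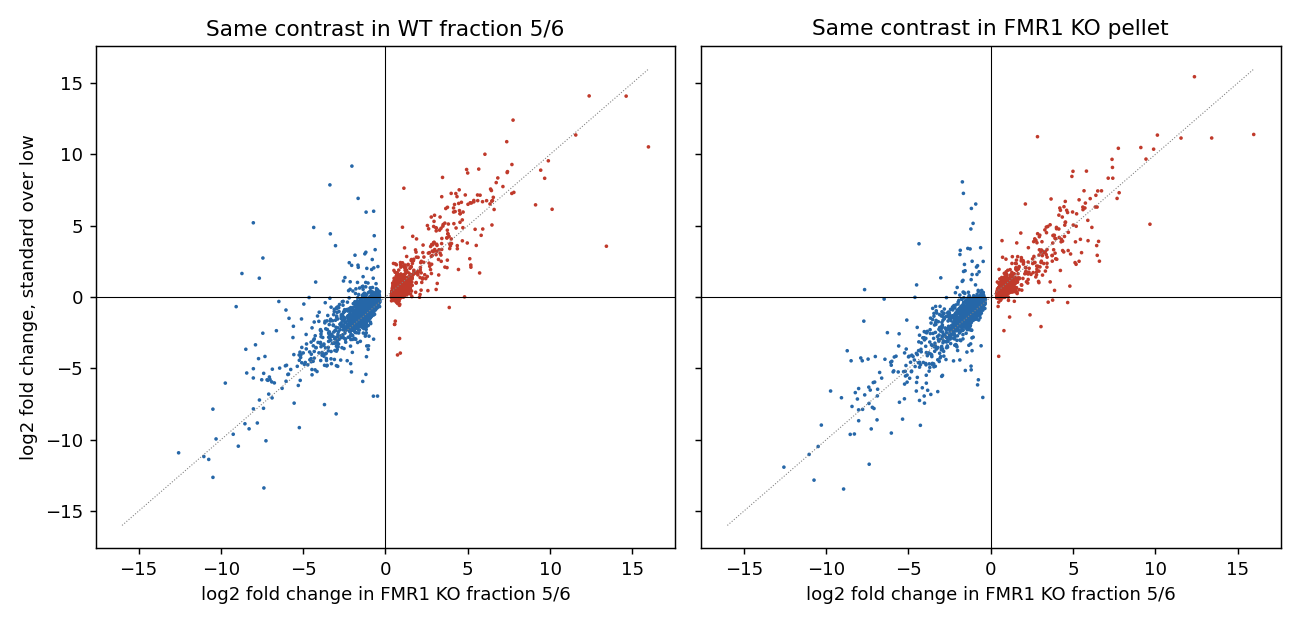
Change between preparations (log2 of standard over low) of the genes called in FMR1 KO fraction 5/6 (horizontal axis) against the change of the same genes in WT fraction 5/6 (left) and in the FMR1 KO pellet (right). Red genes were called higher and blue genes lower, and the dotted line marks equal changes. In WT, 96.0% of the red genes lie above 0 and 93.1% of the blue genes below it.

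Some of the large changes recurred in these other libraries and others did not. 1810046K07Rik changed by -10.91 in WT fraction 5/6 and by -11.92 in the pellet. Creb3l1 changed by 9.55 and 10.37 and Stx1a by -1.65 and -2.34, all past the threshold. For Eif4e the WT change of -3.55 did not pass it (edgeR adjusted p = 0.104), and the pellet change of -3.21 did (0.0443). Mroh6 changed by 10.53 in WT (edgeR adjusted p = 0.0673) and 11.40 in the pellet (0.0340). Tdrd9 changed by -0.67 in WT (edgeR adjusted p = 0.807) and -7.05 in the pellet (0.108), and Fam83h by 3.56 (0.457) and 11.15 (0.0132). Dscaml1 (-1.49 and -4.20) and Vgf (-0.30 and -1.05) passed the test in neither. The WT change of Lmx1a was 6.46 (edgeR adjusted p = 0.117), and 0.13 without WT standard replicate 3, whereas the pellet change was 10.48 (0.00091). Among the groups, the voltage-gated channels had medians of -0.97 in WT and -1.14 in the pellet, and the hnRNPs 0.31 and 0.39, beside medians of all genes within 0.02 of 0. In the pellet the Darnell, Maurin and Shah lists had medians of -0.19, -0.14 and -0.28. In WT they were 0.04, 0.06 and 0.01 with all libraries and -0.14, -0.20 and -0.30 without WT standard replicate 3, so leaving out 1 library turned their sign.

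Whether the preparations differed more in one genotype was tested by the interaction over the 12 libraries of fraction 5/6. Of 15122 genes 1 passed edgeR's test (0.00661%), with 1310 at an unadjusted p under 0.05 and 107 called by DESeq2. It was Fblim1, a filamin-binding adapter of cell adhesions (chromosome 4, 141576062 to 141606096, minus strand). Its level in WT was 11.8, 8.52 and 11.2 CPM in the standard libraries and 282, 192 and 190 CPM in the low nuclease libraries, and in FMR1 KO it was 12.2, 10.8 and 14.7 against 13.7, 9.44 and 8.37. Only the WT low nuclease libraries were high. The interaction of fraction with preparation in FMR1 KO passed for 1 of 15111 genes (0.00662%), with 1266 at an unadjusted p under 0.05 and 59 called by DESeq2. This was Cers2, a ceramide synthase (chromosome 3, 95314791 to 95323599, plus strand), which had 434, 542 and 256 CPM in the standard pellet libraries and at most 5.49 CPM in any low nuclease pellet library or library of fraction 5/6. With a replicate block within preparation it did not pass (edgeR adjusted p = 0.0569).

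Rows of other biotypes were left out of the main fit, and 19 of them had enough reads to be tested beside it. Among these, 1810020O05Rik was higher (1.09) and Tmem250-ps (-1.49) and Zfp469 (-1.52) were lower by edgeR. Of the noncoding list only Snhg11 and Lars2 have rows of their own in the fit. Snhg11, a neuronal host gene of small nucleolar RNAs, had 2.97, 1.94 and 3.45 CPM against 7.16, 17.4 and 9.67 (-2.07, edgeR adjusted p = 0.0239). Lars2, the mitochondrial leucyl tRNA synthetase, had 2207, 1294 and 301 CPM against 228, 573 and 93.0, with overlapping groups and a change of 2.09 that did not pass the test (edgeR adjusted p = 0.125).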

How the data were processed

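Per the labels and the methods, adapter trimming by the authors used cutadapt 2.10, depletion of ribosomal and non-coding reads Bowtie2 2.3.5, alignment to GRCm38 STAR 2.7.8a, duplicate removal Picard and SAMtools 1.19.2, and counting per gene featureCounts 2.2.0. The deposited values are whole-number counts without normalization. The barcodes listed in the methods mark samples, and whether duplicate removal used bases that mark molecules is not stated. Duplicate removal may therefore have lowered counts at crowded positions, and counting intervals cover counting error only. Deposited peak heights are read coverage (signal) on transcripts, called by the authors per library and not scaled between libraries. Reads counted for more than 1 gene are not marked.

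Cdk8 and 26 rows of other biotypes were left out. Genes passing filterByExpr went, with TMM factors, into the quasi-likelihood test of edgeR 4.0.16 (R 4.3.3), with Benjamini-Hochberg adjustment over all genes tested and a threshold of 0.05. SE is the change divided by the root of F. Interactions used 1 model over the 12 libraries concerned. Gene models came from GENCODE M21 and the 5S rRNA annotation and its sequence from RefSeq and the GRCm38 genome. Replicates pool separate brains by the methods, but the labels name no animals, so p-values measure the spread among these samples. Replicate numbers did not pair standard with low nuclease libraries. Members and lists were chosen with earlier results of these data known. Named genes were Fmr1 and Cdk8, the 10 largest rises and falls among called genes with no overlap and a mean of at least 10 CPM, up to 2 called members per list and direction (the 2 most counted where none was called), the 5 most counted genes per preparation, interaction calls, Y-linked genes and noncoding genes. Alternatives were library size alone, DESeq2 1.42.0 and its size factors, other filters, all biotypes, Cdk8 kept, a replicate block, fits with more libraries and leaving out each replicate. Scripts were tested on simulated data. There the main comparison recovered 2% of changes of 1 and 55.6% of changes of 2 on the log2 scale, with 13 false and 57 true calls. The genotype interaction recovered 0% and 24.2% (0 false and 24 true calls), and the fraction interaction 5.15% and 47% (2 and 52). Few interaction calls therefore do not show that the effects were alike. Xist was not analysed here, and 2 genes that the rule names and 1 peak are not reported here.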

Additional observations from a re-analysis of the deposited data

Results flagged for a closer look

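Fblim1 was marked because its preparation effect differed between the genotypes by an interaction test: the FMR1 KO change minus the WT change was 4.64 (SE 0.342, edgeR adjusted p = 0.00104), with all 3 WT low nuclease libraries above the other 9. It passed the test under every alternative run, with values from 4.47 to 4.96.

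Cers2 was marked because its preparation effect differed between fraction 5/6 and the pellet of FMR1 KO: the difference was -7.43 (SE 0.708, edgeR adjusted p = 0.0119), with all 3 standard pellet libraries above the other 9. It did not pass without standard replicate 1 (edgeR adjusted p = 0.0519) or standard replicate 2 (0.0688) of fraction 5/6. No explanation was tested for either gene.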

How the results depend on the processing

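Of the named genes' changes, 1389 values kept their direction and side of the threshold under the alternatives, 459 lost the call, 12 gained it and 20 turned sign. All 20 were genes that were not called. With library size alone they were Fmr1 (-0.13), Tubb5 (-0.12), Tubb3 (-0.28), Canx (-0.42), P2ry12 (-0.33), Hist1h2an (-0.49), Fblim1 (-0.14) and Kdm5d (-0.11). Hist1h4m (-0.01) turned to 0.019 with DESeq2 size factors, 0.023 with DESeq2, 0.011 with 12 libraries and 0.083 with 24 libraries in the fit, and ranged from -0.27 to 0.42 when 1 replicate was left out. Canx (0.02) turned to -0.035 with at least 10 counts in every library and ranged from -0.25 to 0.22 when 1 replicate was left out, and Hist1h2an (0.04) from -0.34 to 0.28.

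The 3130 calls became 4789 with all 24 RPF libraries in the fit and ranged from 314 to 3905 when 1 replicate was left out. DESeq2 called 4672. Replicate numbers did not pair standard with low nuclease libraries: same-numbered deviations correlated at -0.03, 0.04 and 0.02. The replicate block left 425 calls (148 higher, 277 lower). For the genotype interaction the block gave 2 calls, DESeq2 107, and leaving out 1 replicate 1 to 16, the most without WT standard replicate 3. For the fraction interaction DESeq2 gave 59, at least 10 counts in every library 0 (1115 at an unadjusted p under 0.05), and leaving out 1 replicate 0 to 7, with 0 (1017 unadjusted) without standard replicate 1 of fraction 5/6. Same-numbered libraries of fraction 5/6 and the pellet correlated at 0.02, 0.14 and 0.18 (standard) and 0.36, 0.15 and 0.06 (low), all above 0 but not all over 0.1. A replicate block within preparation, added after seeing the data, gave 1 call, and Cers2 was not it (edgeR adjusted p = 0.0569). The difference in the share of the 10 most counted genes, 9.84 percentage points, was 42.8 with Cdk8 kept and 5.70 to 13.6 without 1 library. The ratio of distances was 2.19 with 1 minus Spearman's correlation and 1.36 to 1.68 without 1 library. The causes were not tested.

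Of 37 lists, 29 kept the sign of their median minus that of all genes under every alternative. The other 8 had medians near that of all genes: ATF4 and immediate early genes, astrocytes, cytosolic and mitochondrial ribosomal proteins, giant cytoskeletal and motor proteins, glycolytic enzymes, histones and synaptic vesicle genes. Of the 16 lists with a median above 0, 12 were below 0 with library size alone. In the standard libraries 3 counts stand for 0.446, 0.291 and 0.608 CPM, which limits genes that are low there.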
